A study of Mus musculus with 6 samples.

Results

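The genes described here make up the enzymatic defense against peroxides and electrophiles: the glutathione system, the thioredoxin system, the peroxiredoxins, superoxide dismutases and catalase, and the quinone and heme enzymes induced with them. They were chosen by symbol, from the platform's probe-to-gene table. Of 13146 genes with their own probe set in the deposited table, 59 were members, measured by 111 probe sets, and each was followed with its brightest probe set over the 6 arrays. The rule uses no difference between the groups.

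Expression was measured on the Affymetrix Mouse430_2 array in Lin-/Sca1-/cKit+ cells, a sort that keeps cells with the receptor Kit and removes those with lineage markers or Sca1, as committed myeloid progenitors are. The 3 wild-type samples came from the bone marrow of wild-type MF1 mice. The 3 leukemia samples came from the spleens of 3 numbered mice with AE9a leukemia, which had been lethally irradiated and given hematopoietic progenitors transduced with AE9a, a truncated form of the AML1-ETO fusion protein. The mice of both groups were MF1 and 12 to 16 weeks old. The labels give neither the strain of the transduced donor cells nor a marker that separates them from cells of the host, and tissue of origin differs along with the leukemia, so that spleen against marrow and leukemia against wild-type cannot be told apart. The wild-type labels speak of mice in the plural, so a sample may hold pooled animals, and the p-values reflect no more than how these samples spread.

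Glutathione is a small thiol peptide that cells keep reduced at the expense of NADPH. It is used by peroxidases to reduce peroxides and by transferases to tag electrophiles for export. Thioredoxin is a small protein that passes electrons from NADPH, by way of thioredoxin reductase, to peroxiredoxins and other targets, and mitochondria have a set of these proteins of their own. In marrow the balance differs by lineage: granulocytic and monocytic cells make superoxide on purpose, and red cell precursors carry much catalase, peroxiredoxin and glutathione peroxidase around their heme.

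The wild-type and leukemia arrays stood apart as wholes. Across all probe sets, Pearson's r between arrays of different groups was 0.902 to 0.925, against 0.992 to 0.994 within wild-type and 0.969 to 0.978 within leukemia. Leukemia replicate 1 had the lowest array weight, 0.191 against 0.831 to 2.82 for the others, and shared its fluidics run with the wild-type arrays, while leukemia replicates 2 and 3 were hybridised in the other run. A fit with the run as a block therefore rests on leukemia replicate 1 alone. Ribosomal 18S RNA, by the probe set at its 5′ end, lay between 7.77 and 9.41 (log2 intensity) in wild-type and between 11.1 and 12.4 in leukemia, and this difference accompanied every gene group below. Its part in the results was not tested.

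Of the genes the sort was made on, Kit was present in both groups, at an intensity of 1301 to 1372 in wild-type and 649 to 894 in leukemia. Kit passed as lower in leukemia in the fit described below (log2 change -0.76). The gene for Sca1 was not measured here. The sorted cells differed in their lineage genes, among which the names below were picked after their values were seen. The summed intensity of 10 genes of granulocyte and monocyte progenitors was 38171 to 48597 on the wild-type arrays and 271 to 343 on the leukemia arrays. That of 8 measured mast cell and basophil genes was 4726 to 5168 against 12731 to 21628. That list split, with 4 genes higher and 2 lower, the latter being Mcpt8 (-5.68) and Gzmb (-4.67), both dim on all leukemia arrays. The sum was 1943 to 2157 against 803 to 1688 for 7 megakaryocyte and platelet genes, of which 5 fell and Gp5 rose. The sum of 9 measured erythroid genes overlapped, at 8272 to 12996 against 9802 to 14648, although 4 of them, Alas2, Slc4a1, Ank1 and Rhag, rose at least 2-fold. Mature neutrophil genes summed to 183 to 752 in wild-type and 128 to 136 in leukemia, with 7 of 7 too dim to test, and 3 lymphoid genes to 192 to 258 against 75.7 to 242. Of 6 genes of spleen stroma and endothelium 4 were dim on all arrays, and the list summed to 414 to 489 in wild-type against 112 to 127 in leukemia. The part of these lineage differences in the results below was not tested. In bulk samples, fewer cells of a type and less RNA per cell cannot be told apart.

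A change is the leukemia mean less the wild-type mean in log2 units, with the standard error of the limma fit, and values of single arrays are log2 of the deposited intensity. A gene is called dim on an array where it lay below that array's 40th percentile, and genes that were not dim on 3 or more arrays were tested. Of the 59 members 53 were tested. Glrx3, Gstm2, Gstt3 and Txndc8 were dim on every array, Gstm7 on 5 and Gsta3 on 4, and these 6 were not tested. At an adjusted p under 0.05, 29 of the 53 tested members changed, where 42.1% of the 9715 tested genes did. In leukemia 11 were higher, against 16.9% of all tested genes, and 18 were lower, against 25.2%. Of these, 5 rose by 2-fold or more, against 7.46% of tested genes, and 8 fell as far, against 11.6%. The median change of the tested members was -0.195, that of all tested genes -0.089. Wild-type and leukemia arrays were fully separated for 38 of the 53 members and for 59.2% of all tested genes. Members spread over the leukemia arrays with a median SD of 0.19 and over the wild-type arrays with one of 0.13, as against 0.22 and 0.11 for all tested genes.

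**Figure D1:**
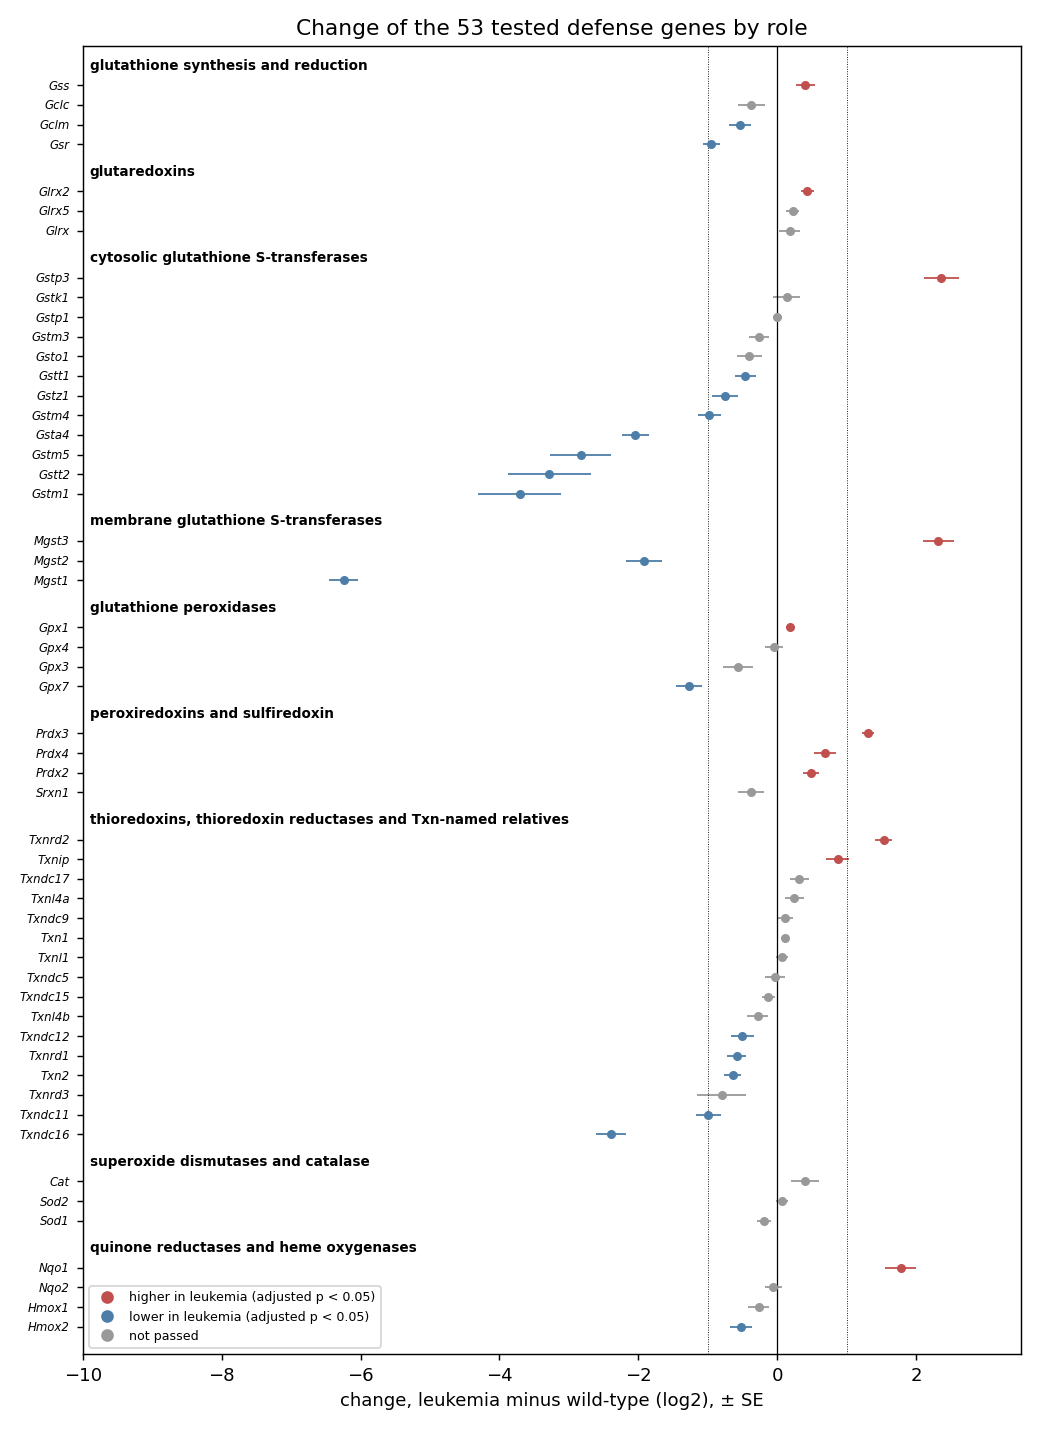
Change of the 53 tested members (x axis, log2, leukemia minus wild-type; points, bars ± SE) grouped by role, with dotted lines at a 2-fold change. Colours mark the 11 members that were higher, the 18 that were lower and the 24 that did not pass; Mgst1 lies farthest from 0, at -6.24.

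The 4 genes of glutathione synthesis and recycling did not move as a unit. Gclc and Gclm encode the catalytic and the modifier subunit of glutamate-cysteine ligase, the rate-limiting step of glutathione synthesis. Gclm read 11.07, 10.46 and 10.82 on wild-type arrays 1 to 3 and 10.24, 10.09 and 10.40 on leukemia arrays 1 to 3. The groups came close without overlapping, and Gclm fell by 0.54 ± 0.16 SE (limma adjusted p = 0.0349). The call was lost without wild-type replicates 1 or 3 or leukemia replicates 1 or 2 (changes of -0.54 to -0.40), among 8 of 18 other fits, the run block included. The second probe set of Gclm gave -0.28 with overlapping groups and did not pass (limma adjusted p = 0.499 over all probe sets). Gclc gave -0.38 ± 0.19 SE and did not pass (limma adjusted p = 0.156), though it did without leukemia replicate 1 (-0.54); without wild-type replicate 1 the change was -0.22. Gss, the synthetase that adds glycine, rose by 0.40 ± 0.13 SE (6.79 to 6.99 in wild-type, 7.23 to 7.34 in leukemia), at a limma adjusted p of 0.0496 that was not kept in 11 of 18 other fits. Among these were the fits without any 1 of the wild-type replicates or without leukemia replicates 2 or 3 (changes of 0.345 to 0.445) and the run block. Its second probe set, an _x_at set, was higher by 1.17 (limma adjusted p = 0.00216 over all probe sets).

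Gsr, the reductase that regenerates glutathione from its oxidised form with NADPH, was the steadiest of these. It read 9.69, 9.98 and 9.62 on the wild-type arrays and 8.77, 8.76 and 8.92 on the leukemia arrays. No leukemia array came within 0.70 of a wild-type array. Gsr fell by 0.95 ± 0.13 SE (limma adjusted p = 0.00124), and its second probe set was also lower, by 0.76. Among the glutaredoxins, which reduce mixed disulfides with glutathione, Glrx2 rose by 0.43 ± 0.10 SE (9.40 to 9.63 in wild-type, 9.92 to 10.04 in leukemia; limma adjusted p = 0.0120). Glrx5, which works in mitochondrial iron-sulfur cluster assembly, gave 0.22 (limma adjusted p = 0.0957; 0.28 and past the threshold without leukemia replicate 1), and the cytosolic Glrx gave 0.18, with a 95% interval of -0.19 to 0.54. Glrx3 was dim throughout, at 5.08 to 5.43 in wild-type and 4.54 to 5.04 in leukemia.

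Of the 8 members that fell at least 2-fold 4 were cytosolic glutathione S-transferases. Of 12 tested in that list, which also holds the mitochondrial and peroxisomal Gstk1, 7 fell and 1 rose, with a median change of -0.61. Gstm1, of the mu class that conjugates epoxides and quinones, read 9.83, 10.55 and 10.06 on the wild-type arrays and 5.87, 7.90 and 5.53 on the leukemia arrays. Leukemia replicate 2 kept the highest level of the leukemia arrays and still lay 1.93 below the lowest wild-type array. The fall was 13.1-fold (change -3.71 ± 0.59 SE, limma adjusted p = 0.00286), and another probe set of Gstm1 without a shared ending was lower by 3.70. Leukemia replicate 2 was also the highest leukemia array for Gstm5, which read 10.74, 10.13 and 10.91 in wild-type, and 7.14, 8.77 and 7.37 in leukemia, a fall of 7.12-fold (-2.83 ± 0.43 SE, limma adjusted p = 0.00236). Gstm4 fell by 0.98 ± 0.17 SE, from 6.65 to 6.73 in wild-type to 5.49 to 5.95 in leukemia. Gstm3 was at -0.26 (limma adjusted p = 0.185), while the dim Gstm2 and Gstm7 differed by -0.64 and -1.25 and were not tested. The mu genes stand side by side on mouse chromosome 3 with 0 protein-coding genes of other families between them in the RefSeq gene table, and the difference was below 0 for 6 of 6, of which 3 passed, 1 did not and 2 were not tested. Their probe sets may share transcripts, since mu genes are close copies and the set used for Gstm1 is an _x_at set, so the members of this cluster are not independent measurements.

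Of the theta class 2 genes were tested and both fell. Gstt2 read 8.48, 8.57 and 8.57 on the wild-type arrays and spread to 6.70, 4.10 and 4.97 on the leukemia arrays. Leukemia replicate 1 was the highest of these, and all 3 lay below wild-type. The fall was 9.73-fold (-3.28 ± 0.60 SE, limma adjusted p = 0.00485), but 1.84 on the log2 scale with the run as a block, which takes leukemia replicate 1 alone. Gstt1 fell by 0.46 ± 0.15 SE (limma adjusted p = 0.0470), lost without any 1 of the wild-type replicates or without leukemia replicates 2 or 3 (-0.51 to -0.39), on centring, on quantile normalization and with the block. Gstt3 was dim on all arrays, at 4.95 to 5.34 against 3.42 to 3.59. Gsta4, an alpha class enzyme that removes the lipid peroxidation product hydroxynonenal, read 6.94, 6.58 and 6.78 in wild-type and 4.43, 4.94 and 4.80 in leukemia, dim on every leukemia array. It fell 4.13-fold (-2.05 ± 0.19 SE, limma adjusted p = 2.77e-04). Gstz1, which also isomerises maleylacetoacetate in tyrosine breakdown, fell by 0.75 ± 0.19 SE (limma adjusted p = 0.0173), and did not pass once wild-type replicate 1 (-0.70) or 3 (-0.73) was left out.

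Of the pi class 1 gene rose and 1 did not pass. Gstp3 read 6.14, 5.82 and 6.28 on the wild-type arrays and 7.99, 8.46 and 8.88 on the leukemia arrays, with 1.71 between the nearest arrays of the groups. It rose 5.14-fold (2.36 ± 0.25 SE, limma adjusted p = 4.70e-04). Its neighbour Gstp1, the abundant pi enzyme of blood cells, read 11.35 to 11.52 in wild-type and 11.35 to 11.48 in leukemia, a difference of 0.00 with a 95% interval of -0.16 to 0.16. Gsto1, of the omega class, gave -0.40 (limma adjusted p = 0.119): leukemia replicate 1 lay with wild-type at 11.51, replicates 2 and 3 lower at 10.95 and 10.74, and without replicate 1 the fall passed (-0.62); with the run block it was at 0.04. Gstk1, the mitochondrial and peroxisomal kappa enzyme, gave 0.13 with an interval of -0.33 to 0.60. Gsta3 was dim on the wild-type arrays (5.05 to 5.47) and read 6.68, 6.86 and 5.33 on the leukemia arrays, so that the groups overlapped.

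The 3 membrane-bound transferases of the MAPEG family split. Mgst1, which protects the membranes of the endoplasmic reticulum and mitochondria, read 8.90, 9.61 and 9.34 on the wild-type arrays and 3.15, 3.05 and 2.93 on the leukemia arrays. It was dim on every leukemia array, and its fall of 75.8-fold (-6.24 ± 0.21 SE, limma adjusted p = 5.79e-06) was the largest of the members. Mgst2, which can also make leukotriene C4, fell 3.78-fold (6.22, 7.17 and 6.61 against 4.95, 4.69 and 4.61; -1.92 ± 0.26 SE, limma adjusted p = 0.00137). Mgst3 rose 4.99-fold, from 8.58, 8.31 and 8.71 to 10.72, 10.51 and 11.32 (2.32 ± 0.22 SE, limma adjusted p = 2.74e-04). Every leukemia array exceeded every wild-type array by at least 1.80. The marker genes of granulocyte and monocyte progenitors fell on the same arrays, 10 of 10 with a median change of -6.93 (7 of them dim on all leukemia arrays), and their part in the fall of Mgst1 was not tested.

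**Figure D2:**
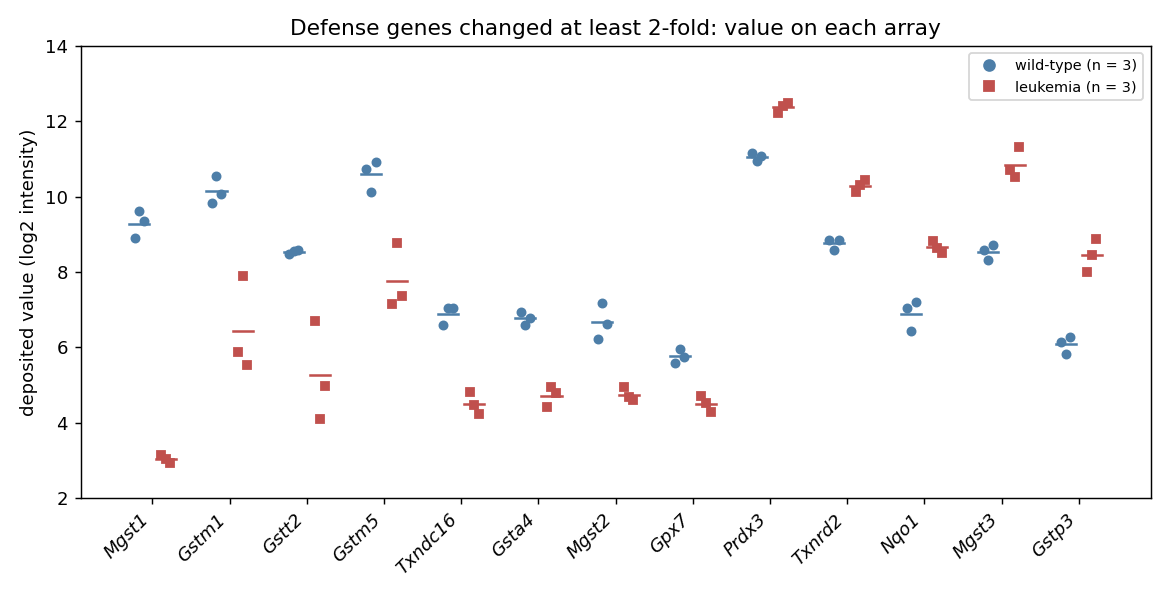
Deposited value (y axis, log2 intensity) of the 13 members changed at least 2-fold, on each of 3 wild-type arrays (circles) and 3 leukemia arrays (squares), with bars at the group means. The groups do not overlap for any of the 13; Gstm1, Gstm5 and Gstt2 spread most within leukemia.

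The sizes of the falls depend on how background is handled. Of the 8 members that fell at least 2-fold, Mgst1, Mgst2, Gsta4, Gpx7 and Txndc16 were dim on all leukemia arrays, and these 5, with Gpx3, passed the filter through wild-type alone. With 16 added before the log the changes were -4.72 for Mgst1, -3.44 for Gstm1, -2.76 for Gstt2, -1.56 for Gsta4 and -0.87 for Gpx7. None of the tested members was dim on all wild-type arrays.

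The upstream sequences of 5 members are shown. They are the pi pair, of which Gstp3 rose and Gstp1 did not pass, Gstm5 and Mgst1, which fell, and the peroxiredoxin Prdx3, described below, which rose. These sequences were picked after the data were seen. Each is the 250 bases before the RefSeq start on the gene's own strand, GRCm38.p6, 5′ to 3′. Capitals mark TGANNNNGC, the core of the antioxidant response element bound by Nrf2 with a small Maf partner, and TGTGGT, the core bound by Runx factors, whose DNA-binding domain AE9a keeps. Both were searched on both strands. The first can overlap an AP-1 site, as TGAGTCAGC in Gstp1 does.
Gstp1, chr19:4037913-4038162, minus strand: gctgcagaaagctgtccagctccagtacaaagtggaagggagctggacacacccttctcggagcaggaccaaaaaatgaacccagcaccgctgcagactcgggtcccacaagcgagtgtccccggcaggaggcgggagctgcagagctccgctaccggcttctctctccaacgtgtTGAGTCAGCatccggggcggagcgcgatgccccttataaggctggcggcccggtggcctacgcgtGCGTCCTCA
Gstp3, chr19:4059448-4059697, minus strand: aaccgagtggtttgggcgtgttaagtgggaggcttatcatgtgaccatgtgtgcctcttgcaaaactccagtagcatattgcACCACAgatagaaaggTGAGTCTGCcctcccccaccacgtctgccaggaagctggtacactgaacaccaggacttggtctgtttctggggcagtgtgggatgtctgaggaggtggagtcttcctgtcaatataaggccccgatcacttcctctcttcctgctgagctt
Gstm5, chr3:107895604-107895853, plus strand: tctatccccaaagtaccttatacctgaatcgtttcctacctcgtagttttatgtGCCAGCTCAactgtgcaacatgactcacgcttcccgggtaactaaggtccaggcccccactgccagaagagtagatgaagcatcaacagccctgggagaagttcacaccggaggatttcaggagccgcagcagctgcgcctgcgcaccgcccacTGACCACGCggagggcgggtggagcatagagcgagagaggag
Mgst1, chr6:138140277-138140526, plus strand: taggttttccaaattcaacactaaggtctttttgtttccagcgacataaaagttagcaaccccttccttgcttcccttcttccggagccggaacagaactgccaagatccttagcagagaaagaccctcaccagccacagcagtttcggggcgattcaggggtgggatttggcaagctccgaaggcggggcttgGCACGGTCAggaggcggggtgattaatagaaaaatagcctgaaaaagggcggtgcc
Prdx3, chr19:60874539-60874788, minus strand: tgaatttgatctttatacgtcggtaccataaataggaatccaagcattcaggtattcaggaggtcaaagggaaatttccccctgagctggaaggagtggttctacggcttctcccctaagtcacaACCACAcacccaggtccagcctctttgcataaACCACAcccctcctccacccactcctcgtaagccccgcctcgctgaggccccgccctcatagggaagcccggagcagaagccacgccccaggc

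The capitals show 2 matches to TGANNNNGC in Gstp1, 1 in Gstp3, 2 in Gstm5 and 1 in Mgst1. In Gstp3 the match, TGAGTCTGC, lies at position -152 from the start, with a TGTGGT on the other strand at -168. Prdx3 holds 2 TGTGGT matches and no TGANNNNGC. All 5 windows shown thus hold a match, whereas those of Gstm1, Mgst3, Txnrd2 and Nqo1, not shown, hold neither motif. Bases outside these windows were not searched, so a window without a match does not show that the gene lacks the element. Windows were found for 52 of the 59 members, and Gclc, Gsr and Hmox1 were among those without one. TGANNNNGC stood in 19 of the 52 (36.5%). The share was 36.8% for 10590 windows of genes on the array and 35.1% for 27025 windows of all genes. It stood in 1 of 11 windows of members that were higher and in 9 of 15 of those that were lower. The same split was not taken over all genes, so these counts have no share to stand beside. Among the lower members with a match, Gclm, Gstt1, Gstz1 and Txndc12 lost their call in some other fits, and Gstm4 and Gstm5 belong to 1 gene cluster. TGTGGT stood in 5 of the 52 (9.62%). It stood in 1169 of the 10590 windows of genes on the array, and in 14.2% of the windows of all genes. By call it stood in 2 of 11 windows of members that were higher and 2 of 15 of those that were lower. Among members that did not pass it stood in 1 of 20. This split too was not taken over all genes. A match to letters this short is a description of the sequence and not a bound site, and where several starts are listed the most upstream was taken.

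Of the 4 glutathione peroxidases, selenium enzymes for the most part, 1 rose, 1 fell and 2 did not pass. Gpx1, the abundant cytosolic and mitochondrial peroxidase, rose by 0.18 ± 0.05 SE (12.77 to 12.89 in wild-type, 12.96 to 13.06 in leukemia; limma adjusted p = 0.0248). The groups lay 0.06 apart, and the call was lost without wild-type replicates 1 (0.14) or 2 (0.18), without leukemia replicates 2 (0.15) or 3 (0.18), without the intensity trend and with the block. Gpx4, which reduces lipid peroxides within membranes, gave -0.05 with a 95% interval of -0.36 to 0.27. Gpx7, a peroxidase of the endoplasmic reticulum without selenium, fell 2.41-fold (5.60, 5.96 and 5.75 against 4.70, 4.53 and 4.27; limma adjusted p = 0.00190). The secreted Gpx3 gave -0.57 (limma adjusted p = 0.0695).

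All 3 measured peroxiredoxins rose. Prdx3, the peroxiredoxin of mitochondria, read 11.15, 10.95 and 11.08 on the wild-type arrays and 12.22, 12.40 and 12.50 on the leukemia arrays. The nearest arrays of the groups lay 1.07 apart, and the rise was 2.48-fold (1.31 ± 0.09 SE, limma adjusted p = 6.15e-05). Prdx4, which works in the endoplasmic reticulum, rose by 0.68 ± 0.16 SE (9.67, 9.72 and 9.98 against 10.71, 10.54 and 10.18; limma adjusted p = 0.0125), with the groups 0.20 apart at their nearest. It did not pass when wild-type replicate 1 (0.62) or 2 (0.65) was left out. Prdx2, the cytosolic form that is plentiful in red cells, rose by 0.49 ± 0.11 SE (11.54, 11.30 and 11.65 against 11.81, 12.09 and 12.05; limma adjusted p = 0.0130), or by 0.31 with the block, where it did not pass. Its second probe set was higher by 1.20. Prdx1, Prdx5 and Prdx6 were not analysed here. Srxn1, sulfiredoxin, which repairs peroxiredoxins oxidised too far, gave -0.39 (limma adjusted p = 0.138), while another of its probe sets was lower by 0.98 (limma adjusted p = 0.00237 over all probe sets).

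Within the thioredoxin system the reductases diverged. Txnrd2, the selenium enzyme that reduces mitochondrial thioredoxin, read 8.84, 8.58 and 8.85 on the wild-type arrays and 10.13, 10.30 and 10.43 on the leukemia arrays. It rose 2.89-fold (1.53 ± 0.12 SE, limma adjusted p = 1.43e-04), and its other 3 probe sets were higher by 1.77, 1.29 and 0.94. Txnrd1, the cytosolic reductase, fell by 0.58 ± 0.14 SE (9.53, 9.74 and 9.74 against 8.88, 9.30 and 9.08; limma adjusted p = 0.0136). It did not pass when wild-type replicate 2 (-0.55) or 3 (-0.55) was left out, or with the mean of its probe sets (-0.14). Txnrd3 gave -0.80 with leukemia replicate 3 apart at 6.02 (7.17 and 7.41 on the other leukemia arrays, 7.46 to 7.81 in wild-type; limma adjusted p = 0.111), and -0.38 without that array. Its other 2 probe sets were lower by 1.06 and 0.92 and passed. Txn2, the mitochondrial thioredoxin that Txnrd2 reduces, fell by 0.64 ± 0.12 SE (9.70, 9.62 and 9.67 against 8.80, 9.14 and 9.12; limma adjusted p = 0.00524), and its other 2 probe sets passed as lower too. The cytosolic Txn1 gave 0.11 with a 95% interval of -0.02 to 0.24, and passed with quantile normalization (0.15) and with the block (0.21).

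Differences between genes were also taken within each array, for 4 pairs chosen after their values were seen. Txnrd2 minus Txnrd1 was -0.69, -1.16 and -0.89 on the wild-type arrays and 1.25, 1.00 and 1.36 on the leukemia arrays, a shift of 2.11. Prdx3 minus Txn2 shifted by 1.95, from 1.33 to 1.46 in wild-type to 3.26 to 3.42 in leukemia. Mgst3 minus Mgst1 shifted by 8.56 and Gstp3 minus Gstp1 by 2.36. The size of the former depends on background, since Mgst1 was dim on every leukemia array. With 16 added before the log Mgst1 changed by -4.72 and Mgst3 by 2.27. The groups were separate in each of the 4 pairs, which describes the choice and was not tested.

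**Figure D3:**
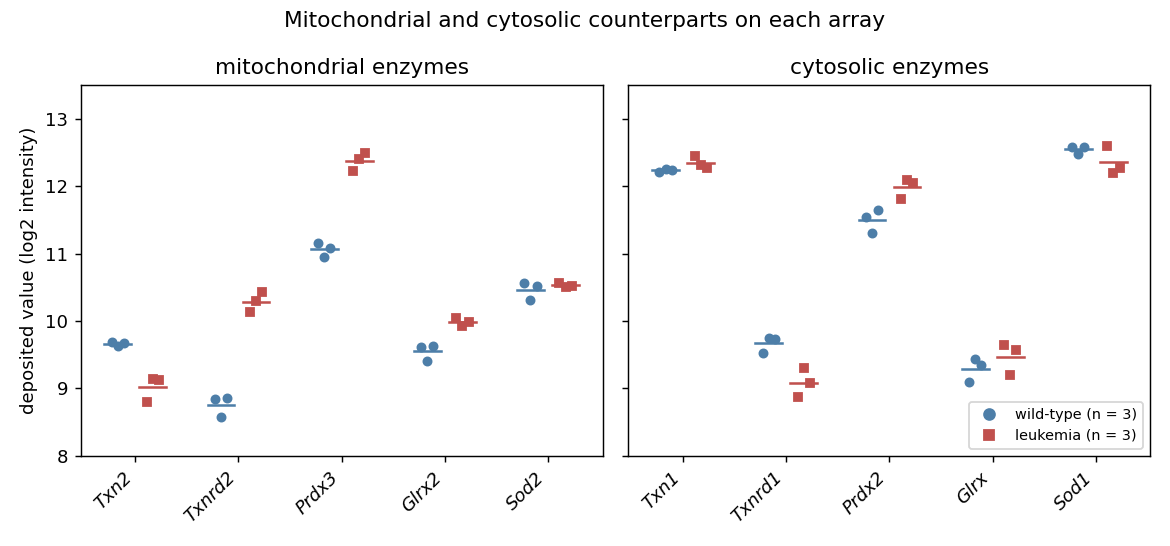
Deposited value (y axis, log2 intensity) of mitochondrial enzymes (left) and cytosolic counterparts (right) on each of 3 wild-type arrays (circles) and 3 leukemia arrays (squares), with bars at the group means. Txnrd2, Prdx3 and Glrx2 lie higher in leukemia and Txn2 lower, Txnrd1 is lower and Prdx2 higher, and Sod2, Txn1, Glrx and Sod1 did not pass.

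Of the other genes named after thioredoxin 1 rose and 3 fell. Txnip, the inhibitor that binds reduced thioredoxin and restrains glucose uptake, rose by 0.87 ± 0.16 SE (9.80, 9.75 and 9.97 against 10.94, 10.84 and 10.35; limma adjusted p = 0.00566), and its second probe set was higher by 1.27. Txndc16, an endoplasmic reticulum protein with a thioredoxin fold, fell 5.24-fold (6.60, 7.03 and 7.04 against 4.80, 4.47 and 4.23; limma adjusted p = 2.25e-04). Txndc11 fell by 0.99 ± 0.18 SE (limma adjusted p = 0.00446). Txndc12 fell by 0.50 ± 0.16 SE (limma adjusted p = 0.0419). It did not pass without wild-type replicates 2 (-0.39) or 3 (-0.47), without leukemia replicates 2 (-0.47) or 3 (-0.52), on centring, on quantile normalization and with the block. The remaining 7 tested relatives, among them the splicing proteins Txnl4a and Txnl4b and the protein disulfide isomerase Txndc5, gave changes of -0.28 to 0.32 and did not pass. Txnl4a passed without leukemia replicate 1 (0.39), but gave -0.33 on a probe set without a shared ending, and Txndc17 without leukemia replicate 3 (0.45).

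Sod1, Sod2 and Cat, the measured superoxide dismutases and catalase, did not pass. Sod1, the cytosolic superoxide dismutase, read 12.48 to 12.59 in wild-type and 12.59, 12.19 and 12.27 in leukemia (-0.20 ± 0.10 SE, limma adjusted p = 0.167). Without leukemia replicate 1 it was lower (-0.32) and passed, and with the run block it was at 0.045. Sod2, the mitochondrial form, gave 0.06 with a 95% interval of -0.15 to 0.27. Cat, the catalase of peroxisomes, read 9.43, 9.47 and 9.66 in wild-type and 10.39, 9.75 and 9.62 in leukemia. Leukemia replicate 1 lay highest. The difference was 0.40 (limma adjusted p = 0.156), or 0.16 without that array and 0.87 and past the threshold with the block that rests on it.

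Of the 4 quinone reductases and heme oxygenases Nqo1 rose and Hmox2 fell. Nqo1, a quinone reductase and a standard readout of Nrf2, read 7.04, 6.43 and 7.20 on the wild-type arrays and 8.84, 8.65 and 8.51 on the leukemia arrays. The nearest arrays lay 1.31 apart, and the rise was 3.43-fold (1.78 ± 0.22 SE, limma adjusted p = 9.87e-04). Nqo2 gave -0.06 with a 95% interval of -0.35 to 0.23. Hmox1, the inducible heme oxygenase and another Nrf2 target, read 5.63 to 5.85 in wild-type and 5.33 to 5.53 in leukemia and did not pass (-0.27 ± 0.15 SE, limma adjusted p = 0.200). Hmox2, the constitutive form, fell by 0.52 ± 0.16 SE (limma adjusted p = 0.0344), or by 0.83 with the block, and the call was lost without any 1 of wild-type replicates 1, 2 or 3 (-0.58, -0.45 and -0.53).

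Other probe sets bore on how firm these calls were. For 10 of the 29 changed members 15 further probe sets were tested, most of them with a shared ending. Of these, 15 of 15 had the same direction and 13 also passed over all probe sets. Among the members that did not pass, 4 of 22 further probe sets passed, those of Srxn1, Txnrd3 and Txndc17. Of the 29 changed members 19 kept their call in every alternative fit that could test them, Mgst1, Mgst2, Mgst3, Gstm1, Gstm5, Gstp3, Prdx3, Txnrd2, Nqo1 and Gsr among them, and 29 of 29 kept their direction. Gclm, Gss, Gstt1, Gpx1, Prdx2 and Txndc12 lost their call with the run as a block, which rests on leukemia replicate 1 alone. Their changes there were -0.54, 0.33, -0.41, 0.12, 0.31 and -0.46, in that order.

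The genes around these enzymes were taken from 6 lists, of which 77 genes were tested. Of these 17 rose and 25 fell, where 16.9% of all tested genes rose and 25.2% fell, and the counts per list below stand beside the same shares. The count of rises was 11 without wild-type replicate 1 and 11 without wild-type replicate 3. In those fits 2843 and 2647 of all tested genes changed in either direction, against 4089 with all arrays.

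Regulators of the Nrf2 pathway gave 1 rise and 2 falls among 11 tested, with a median change of -0.20. Nfe2l2, which encodes Nrf2 itself, read 9.84 ± 0.20 in wild-type and 8.82 ± 0.79 in leukemia (SD, n = 3 each; change -1.02, limma adjusted p = 0.0622). It passed without leukemia replicate 1 (-0.56) or 3 (-1.28) and with the run as a block (-1.93), and the mean of its probe sets gave 0.61, so that its direction depends on the probe sets used. Keap1, the adaptor that marks Nrf2 for destruction, gave -0.20 (limma adjusted p = 0.150). Bach1, the heme-sensing repressor that competes with Nrf2 for its sites, rose by 0.97 ± 0.13 SE (limma adjusted p = 0.00131). Mafg, a small Maf partner, fell by 1.29, and the related Nfe2l1 fell by 1.11.

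Of 15 tested genes that supply NADPH, from which both systems draw, 8 fell and 1 rose, with a median of -0.31. Idh1, the cytosolic isocitrate dehydrogenase, fell by 1.48 ± 0.26 SE (limma adjusted p = 0.00415) and Nnt, the transhydrogenase that makes NADPH in mitochondria, fell by 1.45 ± 0.12 SE (limma adjusted p = 1.33e-04). The mitochondrial NAD kinase gene Nadk2 rose, by 0.47 (limma adjusted p = 0.0366). It did not pass in 8 of the alternative fits, those without any 1 of the wild-type replicates (0.33 to 0.55) or without leukemia replicates 1 (0.46) or 3 (0.39) among them.

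Among 10 tested genes of cystine import, cysteine supply and glutathione turnover 3 rose and 0 fell (median 0.35). Slc3a2, the shared heavy chain of the cystine and other amino acid transporters, rose by 1.32 ± 0.08 SE (limma adjusted p = 3.14e-05), whereas Slc7a11, the cystine carrier itself, was dim on all arrays. Ggt7, a gamma-glutamyltransferase relative, rose by 1.18 (limma adjusted p = 0.0126) and did not pass without wild-type replicate 3 (1.07). It was dim on all wild-type arrays and passed the filter through leukemia alone. With 16 added before the log its change was 0.915, and the stricter filter left it untested. Selenoprotein genes and the factors that insert selenocysteine gave 4 rises and 2 falls among 17. Pstk, the kinase that prepares the selenocysteine tRNA, rose by 1.18 and Selenow by 1.16, Msrb1 fell by 0.58, and Selenop, the selenium carrier, fell by 4.55 ± 1.11 SE with an SD of 2.51 over the leukemia arrays (limma adjusted p = 0.0159). Selenop read 10.81, 11.01 and 10.95 on the wild-type arrays and 5.07, 9.28 and 4.79 on the leukemia arrays, where it was dim on 2. With 16 added before the log its change was -4.14. Selenop did not pass when any 1 of the wild-type replicates was left out (-4.60 to -4.50).

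Genes of the phagocyte oxidase, the source of deliberate superoxide, and Mpo, which turns its hydrogen peroxide into hypochlorous acid, gave 5 falls and 2 rises among 9 tested. Mpo fell by 9.31 ± 0.12 SE and Ncf1 by 4.89 ± 0.24 SE. Both, and Cybb, were dim on all leukemia arrays and passed the filter through wild-type alone, and with 16 added before the log the changes were -8.37 for Mpo and -4.10 for Ncf1. The small GTPase genes Rap1a and Rac1 rose by 0.69 and 0.22, but Rac1 did not pass in 7 alternative fits, those without any 1 of the wild-type replicates (0.19 to 0.24) or without leukemia replicate 3 (0.19) among them. In the list of repair of oxidised protein and nucleotides, which also holds metal-binding proteins, 6 rose and 8 fell among 15. Pon3, a lactonase that limits lipid oxidation, rose by 2.12 ± 0.22 SE and the metallothionein gene Mt2 by 2.02 ± 0.35 SE. Msrb2, the mitochondrial methionine sulfoxide reductase, fell by 3.52 ± 0.34 SE (change of -2.90 with 16 added) and was dim on all leukemia arrays. The base excision gene Neil1 fell by 1.09 but did not pass when wild-type replicate 3 was left out (-0.99).

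**Figure D4:**
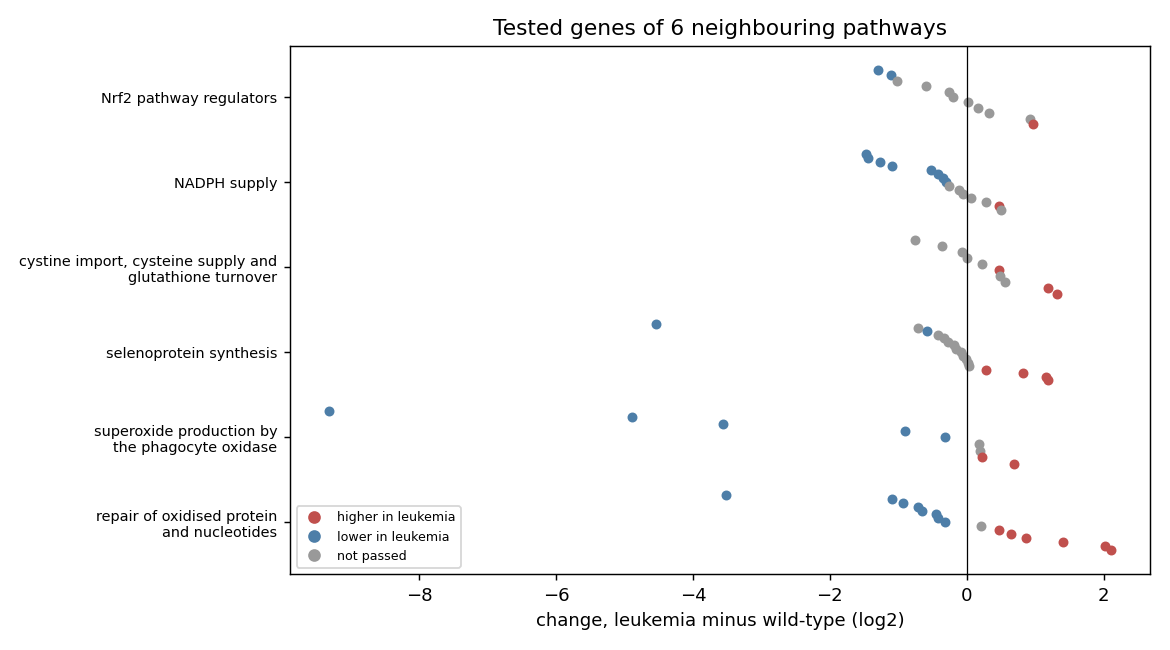
Change (x axis, log2, leukemia minus wild-type) of the 77 tested genes of 6 neighbouring pathways, 1 point a gene, with rows ordered by list and colours as in the plot of members by role. Mpo (-9.31) and Ncf1 (-4.89), which lie farthest to the left, were dim on all leukemia arrays, and NADPH supply has 8 falls and 1 rise.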

How the data were processed

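The deposited table holds linear intensity values of the Mouse430_2 array, 28821 probe sets on 6 arrays (3 leukemia, 3 wild-type), made by the authors with RMA per the submitters' processing notes; its version, background and scaling are not given in the sources used here. The values ran from 3.31 to 18869 and were put on the log2 scale without a pseudocount before limma, as planned for linear values. The array run records gave 2 fluidics runs. Median intensity per array was 71.6 to 79.9, and 6 arrays limit the precision. Of the probe sets 23750 had 1 gene symbol in the platform annotation, 677 several, 4355 none, and 39 were controls; only the first were named. Value columns not mapped to a sample numbered 0. Each gene took its probe set with the highest mean.

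The model (limma version 3.58.1, R version 4.3.3) covered all 9715 tested genes, with group as the factor, variances moderated along an intensity trend, two-sided p-values adjusted over these genes by Benjamini-Hochberg and a threshold of 0.05; 3431 dim genes were left out. The procedure was tested on simulated data. Members and lists were chosen with earlier results of these data known. Named were all members changed at least 2-fold (13), 23 key enzymes (20 measured), 3 regulators and up to 2 rises and 2 falls per list. A further 4 gene pairs and the promoter windows, with their 2 motifs, were chosen after seeing the data. Alternatives covered filter, probe sets, scaling, moderation, array weights, blocks and each array left out. Replicate numbers did not pair the samples (correlation of same-numbered deviations -0.07, 0.05 and 0.03). Promoter windows came from RefSeq GRCm38.p6, matched by gene ID. Figures were drawn with matplotlib 3.10.9.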

Additional observations from a re-analysis of the deposited data

How the results depend on the processing

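The count of changed members was 29 (11 higher, 18 lower), and 21 to 34 in the 12 alternatives that kept all arrays, the lowest with probe sets free of shared endings, where 42 members were tested, and the highest with array weights. Leaving out 1 array at a time gave 22 to 33 members (8 to 13 higher, 12 to 20 lower) and 29 to 48 of the surrounding genes, against 42, of which 11 to 19 were higher and 18 to 29 lower. Counts over all genes moved too. Of 9715 tested genes 4089 changed in the main fit, 2647 to 4716 with 1 array left out and 4706 with array weights. With probe sets free of shared endings 3452 of 8251 changed. With probe sets free of shared endings 15 surrounding genes were lower, against 25. With the replicate number as a block 26 members were called, 10 higher and 16 lower, with 38 surrounding genes and 3565 of all 9715 tested genes. Since the samples share only a number, this block says nothing of pairing.

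The values that changed sign in any setting belonged to genes that did not pass, 8 of them members. Gpx4 (-0.047) was at 0.053 with the mean of its probe sets, 0.032 on centring of the arrays, 0.029 with array weights and 0.069 without leukemia replicate 1 (-0.202 to 0.069 over the arrays left out). Sod1 (-0.195) was at 0.016 with the mean of its probe sets and at 0.045 with the fluidics run as a block. Sod2 (0.063) ranged from -0.016 (without wild-type replicate 2) to 0.112 over the arrays left out. Over the settings Txndc5 (-0.034) ranged from -0.328 to 0.056, Nqo2 (-0.060) from -0.113 to 0.019, Gstp1 (0.00) from -0.072 to 0.079, Gsto1 (-0.403) from -0.623 to 0.037 and Txnl4a (0.245) from -0.328 to 0.392. Nfe2l2 (-1.02) was at 0.61 with the mean of its probe sets. The cause was not tested. With 3 arrays a group, differences under about 0.5 on the log2 scale passed for some members, such as Gpx1 and not for others.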

Other observations

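Members too dim for the test are given as values. Gstt3 read 5.34, 5.31 and 4.95 on the wild-type arrays and 3.46, 3.59 and 3.42 on the leukemia arrays. Gstm7 read 5.18, 4.96 and 5.90 against 4.51, 3.92 and 3.86. The brighter of its 2 probe sets is given; the other differed by -0.03. Gsta3 was higher on leukemia replicates 1 and 2 (6.68 and 6.86) than on replicate 3 (5.33), which lay among the wild-type arrays. Leukemia replicate 2 stood above the other leukemia arrays for both Gstm1 (7.90 against 5.87 and 5.53) and Gstm5 (8.77 against 7.14 and 7.37), and the Gstm1 probe set without a shared ending that was tested had the same array highest (7.43 against 5.56 and 5.30).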
